A study of Xenopus tropicalis with 3 samples.

Results

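The 6 genes described here encode the cadherins and catenins of the adherens junction in the animal cap of Xenopus tropicalis. They are the cadherin genes cdh1, cdh2 and LOC100485633, which the current RefSeq gene table names cdh3, and the catenin genes ctnna1, ctnnb1 and ctnnd1. The rule that selects them uses gene names and no measured value. The genes, and the lists set beside them below, were however chosen with earlier results of these data known. All 6 were present in the deposited table, as 16 of its 35028 transcripts and 6 of its 17647 genes. Animal caps, labelled as prospective epidermis, were dissected by hand, and total RNA was sequenced after depletion of ribosomal RNA at the gastrula stage NF10.5, the neurula stage NF16 and the tailbud stage NF24. The labels name no treatment or genotype at any stage, and state neither how many caps were pooled nor whether caps were cultured after dissection. Every value below is the authors' mean FPKM over the 3 biological replicates the labels give for a stage. FPKM counts fragments relative to transcript length and library size, so levels can be set side by side between genes. No spread between replicates and no depth can be had from these means, so no difference below has an error or a test. The order of any neighbouring levels cannot be set against replicate error.

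Classical cadherins are transmembrane proteins whose outer domains bind the like cadherin on the next cell when calcium is present. Their cytoplasmic tails carry beta-catenin or its relative plakoglobin, and alpha-catenin ties that complex to actin, while p120-catenin binds nearer the membrane and keeps cadherin at the surface. In the early frog embryo the egg supplies cadherin, chiefly the C-cadherin (EP-cadherin) encoded by cdh3, and E-cadherin (cdh1) is the cadherin of the ectoderm and its epidermis. N-cadherin (cdh2) is known from the neural plate and from mesoderm. Beta-catenin has a second role as the nuclear effector of Wnt signalling.

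E-cadherin and C-cadherin messages changed places between gastrula and neurula. cdh1 had 31.7 FPKM at NF10.5, 497 FPKM at NF16 and 620 FPKM at NF24. The level at NF16 was 15.7 times that at NF10.5, and the level at NF24 was 1.25 times that at NF16, so the larger step was the earlier one. By level, cdh1 was gene number 3583 of 17647 at NF10.5, number 165 at NF16 and number 86 at NF24.

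LOC100485633 (cdh3) had 471 FPKM at NF10.5, 225 FPKM at NF16 and 159 FPKM at NF24. Its level at NF16 was 0.478 times that at NF10.5, and its level at NF24 was 0.708 times that at NF16. It stood at number 136 at NF10.5, number 399 at NF16 and number 509 at NF24, and so stayed among abundant messages at the tailbud stage. In the RefSeq gene table (assembly UCB_Xtro_10.0) cdh1 and cdh3 are next to each other, with tango6 on the other side of cdh1 and foxc2 on the other side of cdh3.

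cdh2 was far less abundant, with 2.06 FPKM at NF10.5, 8.71 FPKM at NF16 and 10.96 FPKM at NF24. Its level at NF24 was 5.31 times that at NF10.5, yet it remained the lowest of the 3 cadherins at every stage. Whether fewer cells of a type or less RNA per cell lies behind a level cannot be told apart in bulk samples, and this holds for each gene below.

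**Figure D1:**
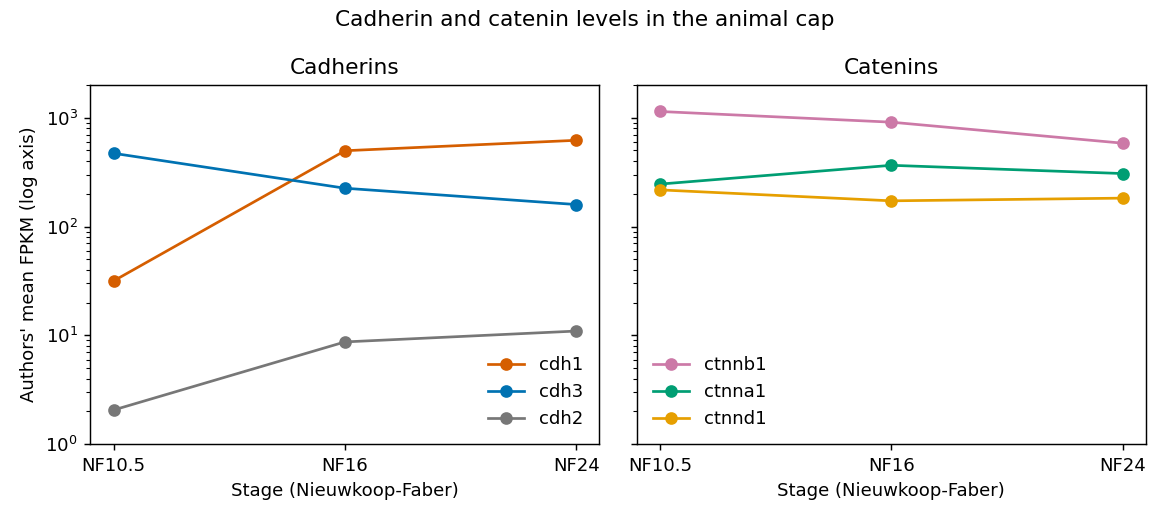
Authors' mean FPKM (log axis) of the 3 cadherins (left) and 3 catenins (right) at NF10.5, NF16 and NF24; each point is 1 stage mean, with no error bar because replicate values are not given. The cdh1 line crosses above the cdh3 line between NF10.5 and NF16, while each catenin stays between 172 and 1141 FPKM.

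Summed over the 3 cadherins, the message level was 505 FPKM at NF10.5, 731 FPKM at NF16 and 790 FPKM at NF24. cdh3 made up 93.3% of this sum at NF10.5, then 30.8% at NF16 and 20.2% at NF24. The share of cdh1 was 6.27% at NF10.5, then 68.0% at NF16 and 78.5% at NF24. cdh2 accounted for 0.409% at NF10.5, then 1.19% at NF16 and 1.39% at NF24. There was thus 14.9 times as much cdh3 as cdh1 message per length at NF10.5, whereas cdh1 was 2.21 times cdh3 at NF16 and 3.89 times at NF24. These shares and ratios are taken within a stage, so a factor applied to a whole stage leaves them as they are. Adding the 18 further cdh genes that were listed and in the table left the share of cdh1 at 6.17% at NF10.5, then 66.0% at NF16 and 77.4% at NF24.

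Differences between stages were also put on the scale of log2(FPKM + 1), and a gene was called higher or lower when this differed by at least 1, a 2-fold ratio after the addition of 1. All 6 genes passed the filter on low values (1 FPKM at some stage), and each was above 1 FPKM at every stage. At NF16 against NF10.5, 2 of the 6 were called higher (cdh1, log2 difference 3.93; cdh2, 1.66) and 1 was called lower (cdh3, -1.06). Among all 11771 genes compared, 59.9% were called in this comparison, 20.9% higher and 39% lower, so 3 of 6 called is near the background. The cdh1 difference lay high among all genes: 433 of the 11771 genes had a more positive one. Decreases of that size are not in this count. The call of cdh3 was near the threshold. Its difference lay below the median of all genes, -0.57, and 37.2% of the genes had a more negative one.

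At NF24 against NF16, 0 of the 6 were called, against 11.7% of all genes (6.91% higher and 4.84% lower). The differences ran from -0.64 for ctnnb1 to 0.32 for cdh1, with the median of all genes at 0.12. At NF24 against NF10.5 the same 3 genes were called as at NF16 against NF10.5, with cdh1 (4.25) and cdh2 (1.97) higher and cdh3 (-1.56) lower, beside 62.2% of all genes (25.4% higher and 36.9% lower). The 3 comparisons share their stage means and do not check one another.

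The scaling between stages bears on the smaller of these differences. Median-of-ratios scaling, which aligns the stages on the median gene, moved the median of all genes by 0.71 at NF16 against NF10.5 and turned the split of calls over all genes to 3575 higher and 2418 lower, against 2466 and 4586 as deposited. Under it the cdh3 difference was -0.25 at NF16 against NF10.5 and -0.88 at NF24 against NF10.5, and cdh3 was called in neither. With values rescaled to TPM it was -0.94 at NF16 against NF10.5. For cdh1 the difference at NF16 against NF10.5 was between 3.78 and 4.72 under every alternative run. cdh2 was not called at NF16 against NF10.5 with a pseudocount of 5 FPKM, at 0.96.

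**Figure D2:**
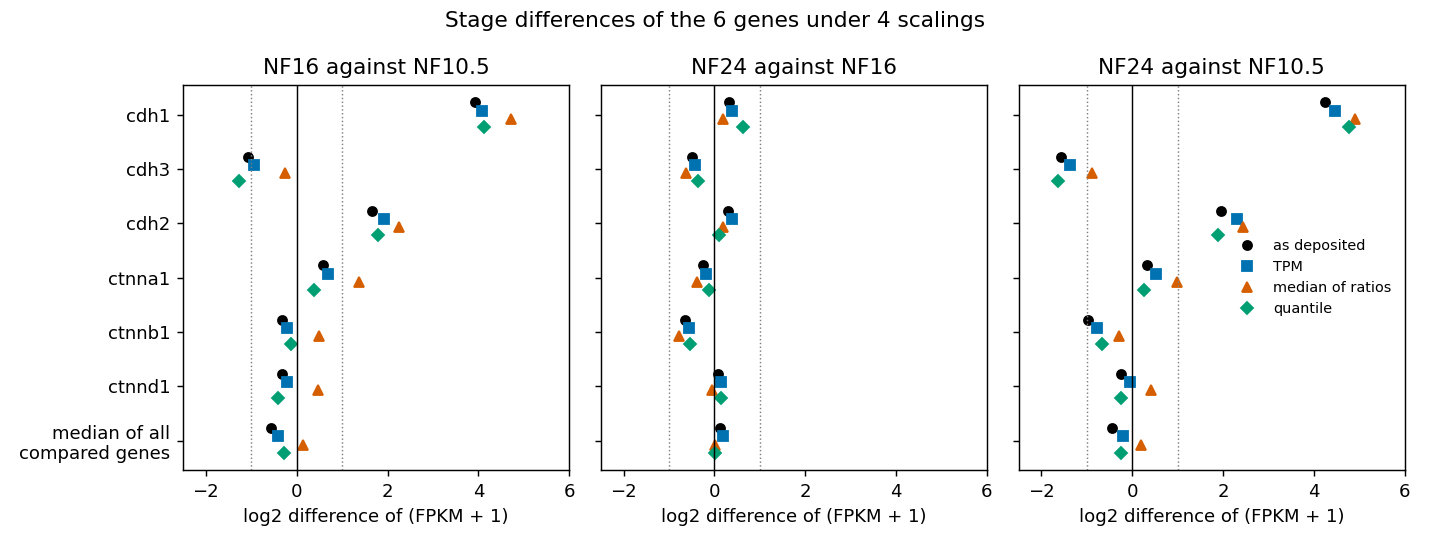
Log2 difference of (FPKM + 1) for the 6 genes and, in the bottom row, the median of all compared genes, in the 3 comparisons; symbols mark values as deposited, TPM, median-of-ratios scaling and quantile normalization, and dotted lines mark the calling threshold of 1. Every symbol of cdh1 lies beyond 3.9 at NF16 against NF10.5, whereas those of cdh3 lie between -1.26 and -0.25.

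Markers of the tissues known for N-cadherin are given beside the cdh2 level. Of 8 muscle and mesoderm markers in the table, 6 were called higher at NF16 against NF10.5 and 0 lower, beside 20.9% and 39% of all genes. Their summed level was 35.5 FPKM at NF10.5, 261 FPKM at NF16 and 350 FPKM at NF24. Of that sum, nkx2-5 had 0.0867 FPKM at NF10.5, 96.5 FPKM at NF16 and 92.3 FPKM at NF24. The mesoderm gene tbxt (listed as t) ran against the sum, with 30.1 FPKM at NF10.5, 24.04 FPKM at NF16 and 5.89 FPKM at NF24, and was called lower at NF24 against NF16 (-1.86). So did myf5, at low level and not called, with 1.77 FPKM at NF10.5, 1.55 FPKM at NF16 and 0.907 FPKM at NF24. Cardiac actin (actc1) stood at 0.647 FPKM at NF10.5, 50.2 FPKM at NF16 and 93.2 FPKM at NF24. Of the 9 neural markers, 3 were called higher and 2 lower at NF16 against NF10.5, with a median of 0.15. Their sum was 241 FPKM at NF10.5, 83.4 FPKM at NF16 and 70.7 FPKM at NF24, and sox2 had 199 FPKM of it at NF10.5, 37.3 FPKM at NF16 and 22.1 FPKM at NF24. Without sox2 the other 8 summed to 41.96 FPKM at NF10.5, 46.1 FPKM at NF16 and 48.6 FPKM at NF24. The neural adhesion gene ncam1 was called higher, with 0.347 FPKM at NF10.5, 4.06 FPKM at NF16 and 5.23 FPKM at NF24. Like sox2, elavl3 was called lower, with 19.1 FPKM at NF10.5, 6.45 FPKM at NF16 and 5.37 FPKM at NF24. Its difference at NF16 against NF10.5 was -1.43, and -0.69 and not called under median-of-ratios scaling. The neuronal gene stmn2 was listed at 0 at NF10.5, and no other neural or muscle marker was at 0 at any stage. Of the 8 neural crest markers, 5 were called higher and 2 lower (dct and foxd3) at NF16 against NF10.5. They summed to 104 FPKM at NF10.5, 269 FPKM at NF16 and 263 FPKM at NF24. Without c3 the other 7 summed to 56.4 FPKM at NF10.5, 39.8 FPKM at NF16 and 41.6 FPKM at NF24. Of those 7, dct alone had 44.1 FPKM at NF10.5, 6.43 FPKM at NF16 and 1.09 FPKM at NF24, so it was most of that sum at NF10.5 only. Among those called higher, sox9 had 1.75 FPKM at NF10.5, 6.11 FPKM at NF16 and 15.6 FPKM at NF24. Likewise twist1 had 1.01 FPKM at NF10.5, 5.63 FPKM at NF16 and 7.99 FPKM at NF24. The other one called lower, foxd3, had 6.44 FPKM at NF10.5, 1.22 FPKM at NF16 and 1.43 FPKM at NF24. The part of these tissues in the cdh2 level was not tested.

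Markers of epidermis, the tissue the label points to, were present at every stage. All 9 were above 1 FPKM at NF10.5, NF16 and NF24. That level does not tell tissues apart, since all 8 muscle and mesoderm markers and all 8 neural crest markers reached it at NF16. The 9 epidermal markers summed to 2833 FPKM at NF10.5, 24240 FPKM at NF16 and 28776 FPKM at NF24. The keratin gene krt5.7 had 690 FPKM of it at NF10.5, where epcam was larger, and was most of it at the later stages. Of these 9, 6 were called higher at NF16 against NF10.5 and 0 lower, beside 20.9% and 39% of all genes. epcam, an epithelial adhesion gene of another family, was abundant throughout, with 977 FPKM at NF10.5, 1156 FPKM at NF16 and 1034 FPKM at NF24. The 7 endoderm markers summed to 109 FPKM at NF10.5, 11.4 FPKM at NF16 and 9.34 FPKM at NF24.

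Against NF10.5, the catenins differed less than cdh1 did at both later stages. At NF24 against NF16 the difference of ctnnb1 (-0.64) was larger in size than that of cdh1 (0.32). None of the 3 catenins was called in any comparison on the deposited values. ctnnb1, encoding beta-catenin, was the most abundant of the 6 genes at NF10.5 and NF16, with 1141 FPKM at NF10.5, 910 FPKM at NF16 and 583 FPKM at NF24. Its log2 difference was -0.33 at NF16 against NF10.5, -0.64 at NF24 against NF16 and -0.97 at NF24 against NF10.5. Of the 6 genes it had the largest decrease from neurula to tailbud, and 1322 of the 11771 genes had a larger one. At NF16 against NF10.5 its sign turned under median-of-ratios scaling, to 0.48.

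ctnna1, encoding alpha-catenin, had 246 FPKM at NF10.5, 365 FPKM at NF16 and 307 FPKM at NF24. It was the one catenin whose level was higher at NF16 than at NF10.5, with a log2 difference of 0.57 as deposited; median-of-ratios scaling put it at 1.38, past the threshold. The ratio of ctnna1 to ctnnb1 was 0.215 at NF10.5, then 0.401 at NF16 and 0.526 at NF24.

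ctnnd1, encoding p120-catenin, had 217 FPKM at NF10.5, 172 FPKM at NF16 and 182 FPKM at NF24. Its log2 difference of -0.33 at NF16 against NF10.5 became 0.47 under median-of-ratios scaling. At NF24 against NF16 the difference was 0.08, the smallest in size of the 6 genes, and -0.05 under that scaling.

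Set against the summed cadherins, beta-catenin message became scarcer. ctnnb1 was 2.26 times the cadherin sum at NF10.5, 1.24 times at NF16 and 0.738 times at NF24. With only the more abundant ctnnb1 transcript counted, this ratio was 1.303 at NF10.5, then 0.634 at NF16 and 0.376 at NF24, below 1 already at NF16. ctnna1 stayed near 0.487 of the cadherin sum at NF10.5 and 0.500 at NF16, and was 0.388 of it at NF24. ctnnd1 was 0.430 of it at NF10.5, then 0.236 at NF16 and 0.231 at NF24. These ratios compare messages and say nothing of protein bound at the membrane.

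Plakoglobin (jup), which can take the place of beta-catenin on the cadherin tail and also sits in desmosomes, moved the opposite way as deposited. Under median-of-ratios scaling both genes were higher at NF16 against NF10.5, jup by 2.82 and ctnnb1 by 0.48. jup had 109 FPKM at NF10.5, 443 FPKM at NF16 and 527 FPKM at NF24, and its log2 difference at NF16 against NF10.5 was 2.02. It made up 8.70% of the summed ctnnb1 and jup messages at NF10.5, then 32.8% at NF16 and 47.5% at NF24. That sum was 1249 FPKM at NF10.5, 1353 FPKM at NF16 and 1110 FPKM at NF24, flatter than either gene alone. Relative to the cadherins it was 2.48 at NF10.5, then 1.85 at NF16 and 1.41 at NF24. This sum was formed after the values had been seen.

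**Figure D3:**
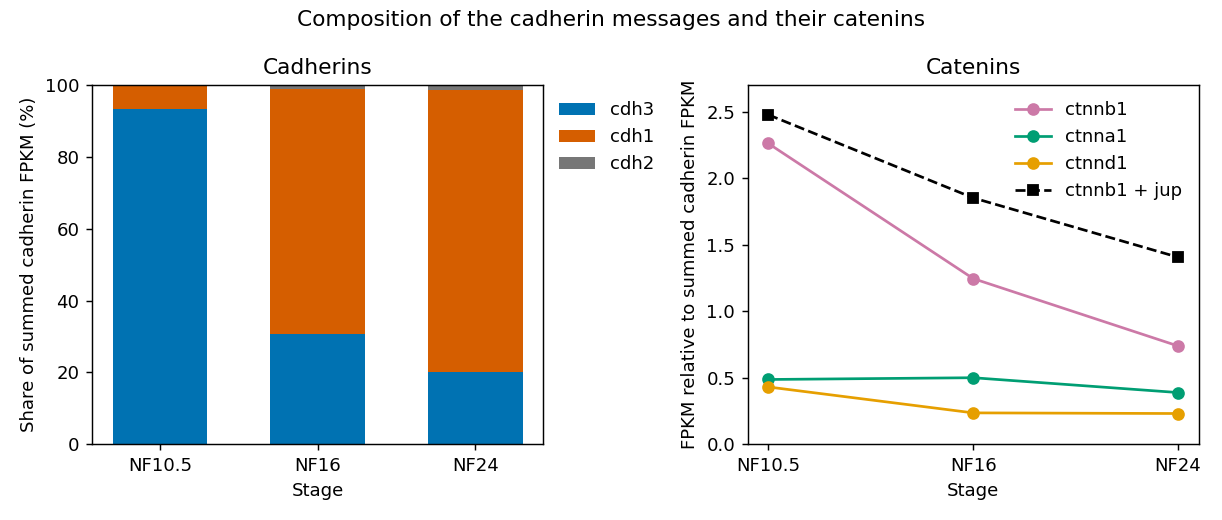
Left, share of each cadherin in the summed cadherin FPKM (%) at each stage; right, FPKM of each catenin, and of ctnnb1 and jup together, relative to the summed cadherin FPKM. The cdh3 part of the bars shrinks from 93.3% at NF10.5 through 30.8% at NF16 to 20.2% at NF24, and the ctnnb1 line drops below 1 at NF24.

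At the transcript level, cdh1, cdh3, cdh2 and ctnna1 were each listed with 1 transcript, so no isoforms could be compared for them. ctnnb1 had 2 transcripts. XM_018094670.1 had 657 FPKM at NF10.5, 463 FPKM at NF16 and 297 FPKM at NF24, while NM_001016958.1 had 483 FPKM at NF10.5, 447 FPKM at NF16 and 286 FPKM at NF24. The share of XM_018094670.1 was 57.6% at NF10.5, then 50.9% at NF16 and 50.9% at NF24, so the transcripts were closer to equal at the later stages. Between NF16 and NF24 they moved together, each to 0.641 times its NF16 level.

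ctnnd1 was listed with 10 transcripts, of which 9 were above 0 at some stage and 7 reached 10 FPKM. In mammals p120-catenin is made as several isoforms that differ in their start site and in internal exons. The deposited table does not say which exons each frog transcript holds, and the assignment of reads to overlapping transcripts could not be checked. XM_012960403.2 led at every stage, with 103 FPKM (47.6% of the gene) at NF10.5, 66.4 FPKM (38.5%) at NF16 and 99.0 FPKM (54.3%) at NF24. XM_012960399.2 was the second at every stage except NF24, with 30.7 FPKM at NF10.5, 43.2 FPKM at NF16 and 18.1 FPKM at NF24. The neurula thus had the lowest level of the leading transcript and the highest level of XM_012960399.2, while the gene total varied little. Neither of these transcripts was in the current RefSeq gene table, which held 8 of the 10.

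A pair of ctnnd1 transcripts was at or near 0 in the gastrula mean. XM_012960400.2 was listed at 0 at NF10.5 and had 16.95 FPKM at NF16 and 19.9 FPKM at NF24. XM_018095213.1 had 0.09 FPKM at NF10.5, 4.68 FPKM at NF16 and 11.7 FPKM at NF24. Together they made up 0.0414% of ctnnd1 at NF10.5, then 12.6% at NF16 and 17.4% at NF24. An opposite group of 4 transcripts (XM_012960401.2, XM_012960402.2, NM_001126073.1 and XM_012960397.2) made up 38.2% at NF10.5, then 23.8% at NF16 and 18.4% at NF24. In this group XM_012960402.2 had 29.9 FPKM at NF10.5, 10.1 FPKM at NF16 and 12.5 FPKM at NF24. Both groups were formed from the values themselves and are a description. An estimate of 0 for a transcript that shares most of its sequence with others can be a failure of the assignment, so the 0 at NF10.5 is given as listed.

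**Figure D4:**
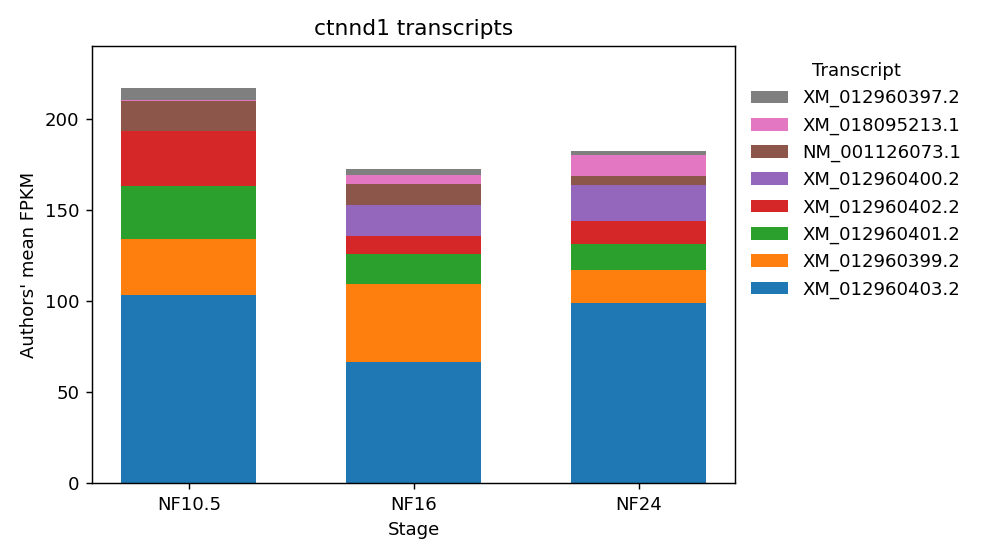
Authors' mean FPKM of the 8 ctnnd1 transcripts that reached 1 FPKM at some stage, stacked by stage, with no error bars. XM_012960400.2 and XM_018095213.1 take up 0.09 FPKM of the bar at NF10.5, 21.6 FPKM at NF16 and 31.7 FPKM at NF24.

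Few other genes with a cdh symbol were present. Of 19 further cdh genes listed, not all of them classical or type II cadherins, 18 were in the table and 5 reached 1 FPKM at some stage. At NF16 against NF10.5, 2 of these 5 were called higher and 0 lower, beside 20.9% and 39% of all genes. At NF24 against NF16, 0 were higher and 1 lower, beside 6.91% and 4.84%. At NF24 against NF10.5, 1 was higher and 1 lower, beside 25.4% and 36.9%. Only cdh26 passed 5 FPKM, with 5.13 FPKM at NF10.5, 18.4 FPKM at NF16 and 5.98 FPKM at NF24. It was called higher at NF16 against NF10.5 (1.66) and lower at NF24 against NF16 (-1.48). cdh16 had 2.68 FPKM at NF10.5, 0.877 FPKM at NF16 and 0.163 FPKM at NF24. cdh9 was listed at 0 at all stages, and the endothelial cadherin gene cdh5 did not exceed 0.08 FPKM.

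Protocadherins and the giant atypical cadherins went both ways. Of 15 compared, 6 were called higher and 2 lower at NF16 against NF10.5, beside 20.9% and 39% of all genes. Their median was 0.48, against -0.57 for all genes. Median-of-ratios scaling gave 9 higher and 1 lower, beside 30.4% and 20.6% of all genes. pcdh7, known in Xenopus as NF-protocadherin of the ectoderm, had 2.18 FPKM at NF10.5, 66.4 FPKM at NF16 and 38.9 FPKM at NF24. fat2 had 2.92 FPKM at NF10.5, 58.2 FPKM at NF16 and 90.7 FPKM at NF24, and its difference at NF16 against NF10.5 (3.91) was close to that of cdh1. pcdh8.2 had 6.15 FPKM at NF10.5, 26.3 FPKM at NF16 and 11.6 FPKM at NF24, though reads may be shared with its paralog pcdh8. pcdh19 was called lower at NF16 against NF10.5 (-1.41, and -0.74 under median-of-ratios scaling, not called). At NF24 against NF16, pcdh20 was called higher (1.54) while celsr2 (-1.38) and pcdh8.2 (-1.12) were called lower. celsr1, a planar polarity cadherin, was called higher at NF16 against NF10.5 (1.41). At NF24 against NF10.5 celsr1 stood at 0.88 and fat1 at 0.55, neither called. There celsr1 passed the threshold with TPM (1.09), quantile normalization (1.40) and median of ratios (1.53), and fat1 with quantile normalization (1.07) and median of ratios (1.20).

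Among the relatives of the catenins, 5 were compared, with 2 called higher and 1 lower at NF16 against NF10.5, which for 3 of 5 is the background of 59.9%. At NF24 against NF16, 0 were called, beside 11.7% of all genes. Besides jup, the 1 other gene called higher was ctnnd2, of the p120 family, with 0.12 FPKM at NF10.5, 1.41 FPKM at NF16 and 1.08 FPKM at NF24. These levels are near the filter of 1 FPKM. Its difference of 1.11 was 0.88 and not called with quantile normalization, and stayed called with TPM (1.60) and median of ratios (1.34). ctnnal1, an alpha-catenin-like gene, was lower, with 50.5 FPKM at NF10.5, 6.45 FPKM at NF16 and 7.08 FPKM at NF24. The p120 relatives arvcf and pkp4 were not called in any comparison, and arvcf had 76.8 FPKM at NF10.5, 83.96 FPKM at NF16 and 86.4 FPKM at NF24. ctnna2, the neuronal alpha-catenin, did not exceed 0.23 FPKM, which leaves ctnna1 as the abundant alpha-catenin message among those listed in the table.

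Proteins that tie the complex to actin had 2 of 11 members higher and 3 lower at NF16 against NF10.5, with a median of 0.14. The higher count is near the background of 20.9% and the lower one is below that of 39%. Under median-of-ratios scaling 5 were higher and 1 lower, beside 30.4% and 20.6% of all genes. actn1, an alpha-actinin that crosslinks actin, had 79.2 FPKM at NF10.5, 332 FPKM at NF16 and 289 FPKM at NF24. vasp, which promotes actin filament growth, had 9.80 FPKM at NF10.5, 56.9 FPKM at NF16 and 98.6 FPKM at NF24, while its relative enah had 37.3 FPKM at NF10.5, 12.9 FPKM at NF16 and 6.12 FPKM at NF24. Vinculin (vcl), which binds stretched alpha-catenin, had 120.4 FPKM at NF10.5, 53.4 FPKM at NF16 and 86.4 FPKM at NF24. The log2 difference of vcl at NF16 against NF10.5 was -1.16, and -0.36 and not called under median-of-ratios scaling. limd1 was lower under both, at -3.43 and -2.75. cttn, encoding the actin-binding protein cortactin, was the only 1 of the 11 called at NF24 against NF16 (1.01), beside 11.7% of all genes. This difference was not called under median-of-ratios scaling (0.88). The level of cttn was 78.8 FPKM at NF10.5, 39.2 FPKM at NF16 and 79.9 FPKM at NF24.

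Nectins are immunoglobulin-type adhesion proteins of the same junction. Of 3 compared, 1 was called higher at NF16 against NF10.5, beside 20.9% of all genes. It was nectin1 (listed as pvrl1), with 11.02 FPKM at NF10.5, 36.0 FPKM at NF16 and 29.99 FPKM at NF24. nectin2 (listed as pvrl2) was the most abundant, with 137 FPKM at NF10.5, 194 FPKM at NF16 and 120 FPKM at NF24. Neither was called at NF24 against NF16, and under median-of-ratios scaling nectin2 too was called higher at NF16 against NF10.5 (1.303).

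Genes of cadherin turnover and phosphorylation had 2 of 16 higher and 5 lower at NF16 against NF10.5, both below the backgrounds of 20.9% and 39%. Their median was -0.81, against -0.57 for all genes. Median-of-ratios scaling gave 3 higher and 1 lower, both again below the shares of all genes, 30.4% and 20.6%. rab11a, which returns cadherin to the surface in recycling endosomes, had 24.7 FPKM at NF10.5, 160 FPKM at NF16 and 263 FPKM at NF24. The kinase genes fer and yes1 were lower at NF16 against NF10.5, at -1.82 and -1.78, and at -1.06 and -0.97 under median-of-ratios scaling, where yes1 was not called. yes1 had 184 FPKM at NF10.5, 52.9 FPKM at NF16 and 52.0 FPKM at NF24. cbll1, whose product Hakai marks E-cadherin for endocytosis in mammals, had 17.98 FPKM at NF10.5, 5.76 FPKM at NF16 and 6.17 FPKM at NF24. It was called lower at NF16 against NF10.5 (-1.49) and at NF24 against NF10.5 (-1.40). Under median-of-ratios scaling these were -0.75 and -0.78, and not called. The protease gene adam9 was the only 1 of the 16 called at NF24 against NF16 (1.10), beside 11.7% of all genes. It had 13.3 FPKM at NF10.5, 3.66 FPKM at NF16 and 8.96 FPKM at NF24, and was called lower at NF16 against NF10.5 (-1.62). adam10, which sheds E-cadherin in mammals, was not called in any comparison, with 103 FPKM at NF10.5, 76.3 FPKM at NF16 and 79.7 FPKM at NF24.

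Of 12 regulators known from mammals to act on E-cadherin or on the epithelial state, 8 were called higher and 3 lower at NF16 against NF10.5, beside 20.9% and 39% of all genes, with a median of 1.63. Median-of-ratios scaling gave 9 higher and 1 lower, beside 30.4% and 20.6% of all genes. The list holds repressors and activators, and members of both kinds were called in the same direction as cdh1. Among repressors, snai1 had 32.6 FPKM at NF10.5, 122 FPKM at NF16 and 77.1 FPKM at NF24, and snai2 had 1.97 FPKM at NF10.5, 17.8 FPKM at NF16 and 10.3 FPKM at NF24. zeb2 was lower, with 22.2 FPKM at NF10.5, 4.64 FPKM at NF16 and 4.73 FPKM at NF24. Also called lower at NF16 against NF10.5 were tcf3 (170 and then 75.4 FPKM, -1.16) and klf4 (7.91 and then 3.04 FPKM, -1.14). Under median-of-ratios scaling neither tcf3 (-0.36) nor klf4 (-0.47) was called there. Among epithelial factors, grhl2 had 2.53 FPKM at NF10.5, 19.7 FPKM at NF16 and 22.9 FPKM at NF24, and grhl3 was already at 325 FPKM at NF10.5, with 400.03 FPKM at NF16 and 379 FPKM at NF24. elf3, at 0.0133 FPKM at NF10.5, had 5.74 FPKM at NF16 and 15.8 FPKM at NF24. It was the only 1 of the 12 called at NF24 against NF16, beside 11.7% of all genes. snai2 and twist1 also stand in the neural crest list, and grhl3 in the epidermal list.

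**Figure D5:**
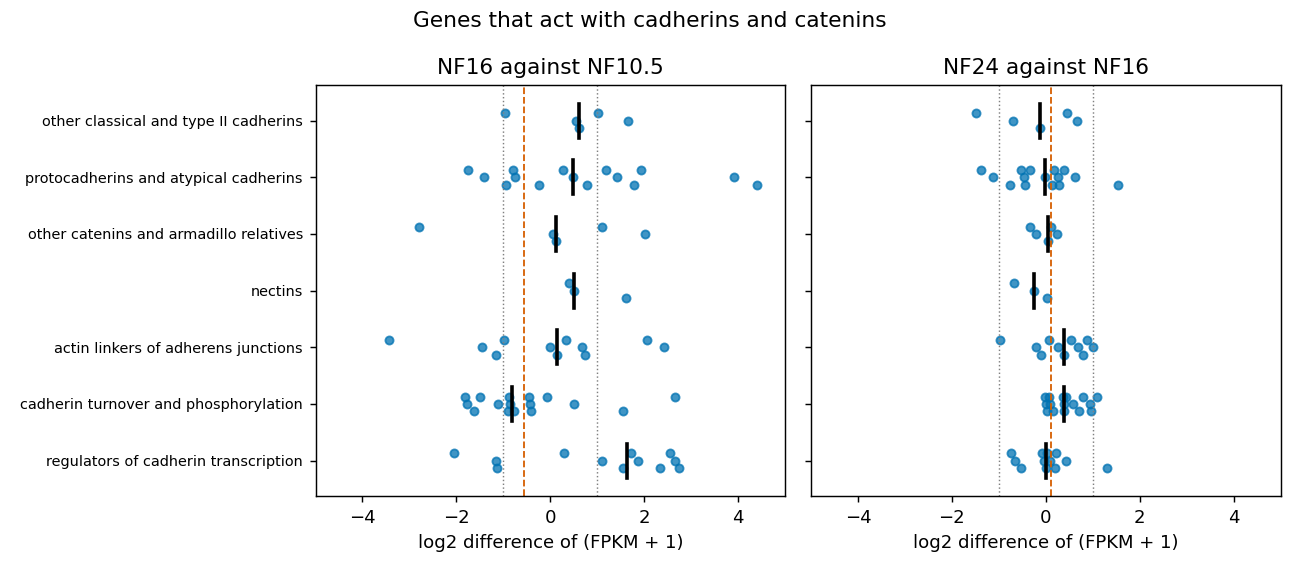
Log2 difference of (FPKM + 1) for each compared gene of 7 lists, at NF16 against NF10.5 (left) and NF24 against NF16 (right); each point is 1 gene, black bars are list medians, the dashed line is the median of all compared genes and dotted lines mark the threshold of 1. Points are spread to both sides at NF16 against NF10.5 and lie mostly within the dotted lines at NF24 against NF16.

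Among 6269 genes with a symbol and a mean of at least 10 FPKM, those whose pattern lay closest to each member were found by the Euclidean distance over the 3 stages of log2(FPKM + 1), centred on each gene. With 3 points many genes lie close, so these names describe likeness only. The closest to cdh1 were wfdc2, tmem63c and c3h15orf65, and wfdc2 had 1.95 FPKM at NF10.5, 43.9 FPKM at NF16 and 55.1 FPKM at NF24. The closest to cdh3 were brf1, mxd3 and pola1. For cdh2 they were kiaa1217, atf6 and gmppb. For ctnna1 they were rps18, kdelr1 and serp1, for ctnnb1 vhl, srrm1 and tpbg, and for ctnnd1 cdk2, gtf2h5 and ppa2.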

How the data were processed

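Directional paired-end libraries were made from ribosomal-RNA-depleted total RNA, per the labels' protocols. Per the submitters' processing notes, the tools were STAR 2.4.2a and RSEM 1.3.0, whose settings and the genome build are not given in the sources used here. The authors deposited FPKM per transcript in 1 column per stage. All values above 0 were multiples of 0.01 divided by 3, to within 0.01 of a step, and are taken as the authors' mean of 3 replicates. Depth is unknown.

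A gene's value is the sum of its transcripts' FPKM, including 19 repeated rows, of which 0 belonged to the 6 genes. Differences are of log2(FPKM + 1), over the 11771 genes with at least 1 FPKM at some stage. The planned limma fit needs replicate columns, so the planned rule of size (1 on the log2 scale) was used, and the steps were tested on simulated data. The genes and lists were chosen with earlier results of these data known. From each list the text names genes among those with at least 5 FPKM with the largest called difference, and the most abundant of those not called. cdh16, cdh9, cdh5, ctnnd2, ctnna2 and snai1, and the groups of ctnnd1 transcripts, were chosen after their values were seen. Older names were matched by transcript to RefSeq (4 of 140 listed genes, 13 not matched). No sequences are printed. Python 3.11.15, pandas 2.3.3 and numpy 2.4.6 were used.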

Additional observations from a re-analysis of the deposited data

How the results depend on the processing

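No paired analysis was possible because each stage has 1 column of means, and for the same reason no replicate could be left out. Alternatives changed the pseudocount (0.1 or 5 FPKM), the scaling (TPM, median of ratios, quantile), the gene value (highest transcript, repeated rows once), the filter and the genes summed. Of 126 values for the 6 genes' differences, 30 could not move, because the genes have no repeated rows or only 1 transcript; of the other 96, 86 kept their direction and their side of the threshold. Under median-of-ratios scaling, cdh3 was not called at NF16 against NF10.5 (-0.25) or at NF24 against NF10.5 (-0.88), so 0 genes were lower in either, ctnna1 was called at NF16 against NF10.5 (1.38), and signs turned for ctnnb1 at NF16 against NF10.5 (0.48) and for ctnnd1 at NF16 against NF10.5 (0.47), NF24 against NF10.5 (0.42) and NF24 against NF16 (-0.049). With TPM cdh3 was at -0.94 at NF16 against NF10.5, leaving 0 genes lower. With a pseudocount of 5 FPKM cdh2 was at 0.96 at NF16 against NF10.5, leaving 1 gene higher. With the highest transcript ctnnb1 was called at NF24 against NF10.5 (-1.14), giving 2 genes lower.

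Over all genes, the share called higher at NF24 against NF10.5 was 16.8% with a pseudocount of 5. At NF24 against NF16 it was 2.30% higher and 2.29% lower with a pseudocount of 5, and 11.4% higher and 8.33% lower with 0.1. The share called lower under median-of-ratios scaling was 20.6% at NF16 against NF10.5 and 23.2% at NF24 against NF10.5. Taking the highest transcript shrinks only genes with several transcripts. The catenin sum became 1006 FPKM at NF10.5, 895 FPKM at NF16 and 703 FPKM at NF24. With the stages listed in that order, ctnnb1 to cadherins became 1.303, 0.634 and 0.376, and ctnna1 to ctnnb1 0.374, 0.789 and 1.03. Listed likewise, ctnnd1 to cadherins became 0.205, 0.0908 and 0.125, lowest at NF16. With transcripts summed, that ctnnd1 ratio was lowest at NF24, at 0.231 beside 0.236 at NF16. With jup added to ctnnb1, an alternative chosen after seeing the data, the ratio to cadherins at NF24 was 1.41. Of the alternatives, only the highest transcript and the added cadherins were run on the cadherin shares and sums. The first cannot move them, as each cadherin has 1 transcript, and the second moved them by less than 1.5 times. No scaling between stages was run on these sums, so they are given on the deposited scale only. Without replicate values, no statement here can be set against the spread between animals.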
